A study of Mus musculus with 9 samples.

Results

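Interferon-stimulated genes are the genes that cells switch on when they sense an interferon. The set described here holds 45 such genes, given as a list of symbols that covers sensors, transcription factors and antiviral effectors. The rule uses no measured value, but the list was drawn up with earlier results of these data known. All 45 were found among the 22701 genes of the table, and all 45 were among the 13845 genes with a mean normalised count of at least 10, the minimum for testing.

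Type I and type III interferons act through receptors and the kinases JAK1 and TYK2, which phosphorylate STAT proteins. Among these, STAT2 joins IRF9 in a complex that binds the interferon-stimulated response element (ISRE), whereas interferon gamma acts through the gamma-activated site (GAS). In liver, hepatocytes, Kupffer cells (the resident macrophages) and endothelial cells all answer to interferons, and many of these genes are also expressed at a low level without infection.

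RNA was sequenced from 9 livers of 5-week-old mice on a background given as C57BL/6 and 129svPas, and the study asked how liver transcripts differ when proteins of the HP1 family are missing. HP1α, HP1β and HP1γ, encoded by Cbx5, Cbx1 and Cbx3, bind methylated histone tails in heterochromatin. The groups were WT (3 livers), HP1a_KO (HP1a-/-, 2 livers), HP1ab_KO (HP1a-/- with HP1bliver-/-, that is HP1β deleted in liver, 1 liver) and HP1ag_KO (HP1a-/- with HP1gliver-/-, HP1γ deleted in liver, 3 livers), so the 6 livers outside WT all lacked HP1α. What drove deletion in liver is not given in the sources used here, nor are sex and litter. The libraries are named by animal numbers, and p-values measure the spread between these livers.

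The shallowest library, HP1a_KO replicate 1, had 16266423 reads assigned to genes, and the other 8 had 26375545 to 36161177. Cbx5 read 997 to 1542 in WT and 501 to 813 in the 6 HP1α-null livers, Cbx1 read 803 to 1082 in WT, 457 and 771 in HP1a_KO, 690 to 856 in HP1ag_KO and 217 in the HP1ab_KO liver, and Cbx3 read 536 to 641 in WT and 326 to 380 in HP1ag_KO. Values below are normalised read counts, and ± is the SD over 3 livers of WT or HP1ag_KO, or 2 of HP1a_KO. The fewest reads for any of the 45 genes in any library was 37, and the median was 645. The hepatocyte markers Alb, Apoa1, Apob, Ttr, Trf and Cps1 summed to between 2942642 and 3886110 in every library.

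Promoter sequences are shown first because they carry the letters that interferon-activated factors read. RefSeq promoters (GRCm38.p6, 250 bases before to 50 after the start) were matched for 34 of the 45 genes. The ISRE core, searched on both strands as a pair of GAAA blocks with any 2 bases between (TTTC on the other strand), was present in 20 of the 34 (58.8%), against 3.99% of 27025 genes in the promoter table and 3.87% of the 9879 tested genes matched there. The GAS core TTCNNNGAA, which reads the same pattern on both strands, was present in 11 of 34 (32.4%), against 9.55% of all genes. Both cores stood in 7 of 34 (20.6%), against 0.614% of all genes. All 4 matched immunity-related GTPase genes and all 3 matched guanylate-binding protein genes held the ISRE core, and 3 of the 4 former also held a GAS core. The lists of interferon-stimulated genes and of these cores are both known from the same biology, so the shares describe the set.

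Stretches of 100 bases follow for 3 of the 8 genes with the smallest p in HP1ag_KO against WT, those with an ISRE core before the start, and for Ifit1 and Isg15, classical interferon targets that were added after the motifs had been counted. Capitals mark the ISRE core or overlapping cores, which read as TTTC blocks where the core lies on the other strand. The stretches lie at chr3:142559944-142560043 on the plus strand (Gbp3), chr10:128270248-128270347 on the plus strand (Stat2), chr7:104465194-104465293 on the minus strand (Trim30a), chr19:34640749-34640848 on the plus strand (Ifit1) and chr4:156200836-156200935 on the minus strand (Isg15), and each is read 5′ to 3′ along its gene.
Gbp3: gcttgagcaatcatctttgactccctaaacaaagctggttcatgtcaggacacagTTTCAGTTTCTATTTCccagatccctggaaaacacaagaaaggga
Stat2: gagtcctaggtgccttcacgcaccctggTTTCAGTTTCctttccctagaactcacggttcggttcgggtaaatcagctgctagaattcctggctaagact
Trim30a: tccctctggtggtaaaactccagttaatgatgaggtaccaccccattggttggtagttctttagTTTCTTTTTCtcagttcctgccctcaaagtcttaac
Ifit1: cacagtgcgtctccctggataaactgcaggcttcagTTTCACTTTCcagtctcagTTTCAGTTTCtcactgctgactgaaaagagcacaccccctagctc
Isg15: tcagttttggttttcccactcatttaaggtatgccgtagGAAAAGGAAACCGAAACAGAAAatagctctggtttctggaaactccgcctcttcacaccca
Gbp3 held 2 overlapping cores, Ifit1 held 2 separate ones and Isg15 held 3 that overlap, while Stat2 and Trim30a held 1 each. Trim21, also among the 8, held 2 cores, both after the start, and its sequence is not shown. Irf7 held 0 cores. Mx1, Mx2 and Zbp1, the rest of the 8, had no matched promoter and were not searched. All 20 genes with the core had a higher mean in HP1ag_KO, with a median log2 difference of 0.34, and 12 of the 14 without it did, also with a median of 0.34.

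Per kilobase of exon, the scale on which genes can be compared, the 45 genes spanned a 230.2-fold range of level in WT liver, with a median of 173 normalised counts per kb. Bst2, which encodes tetherin, a membrane protein that holds budding virions on the cell, read 3358 ± 213 per kb. Iigp1, an immunity-related GTPase, read 3256 ± 444 per kb. These 2 stood above the third gene, Igtp, at 674 ± 121 per kb. The lowest levels were those of Oas2, at 19.7 ± 5.94 per kb, and Oas3, at 14.6 ± 5.01 per kb, both oligoadenylate synthetases, which make the second messenger of RNase L. Between these ends 28 genes lay from 100 to 700 per kb, 15 lay under 100 and 2 over 700. In this order of levels, the WT livers of neighbouring genes overlapped in 43 of 44 cases, the exception being Iigp1 and Igtp, so the order within the middle is not resolved.

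**Figure D1:**
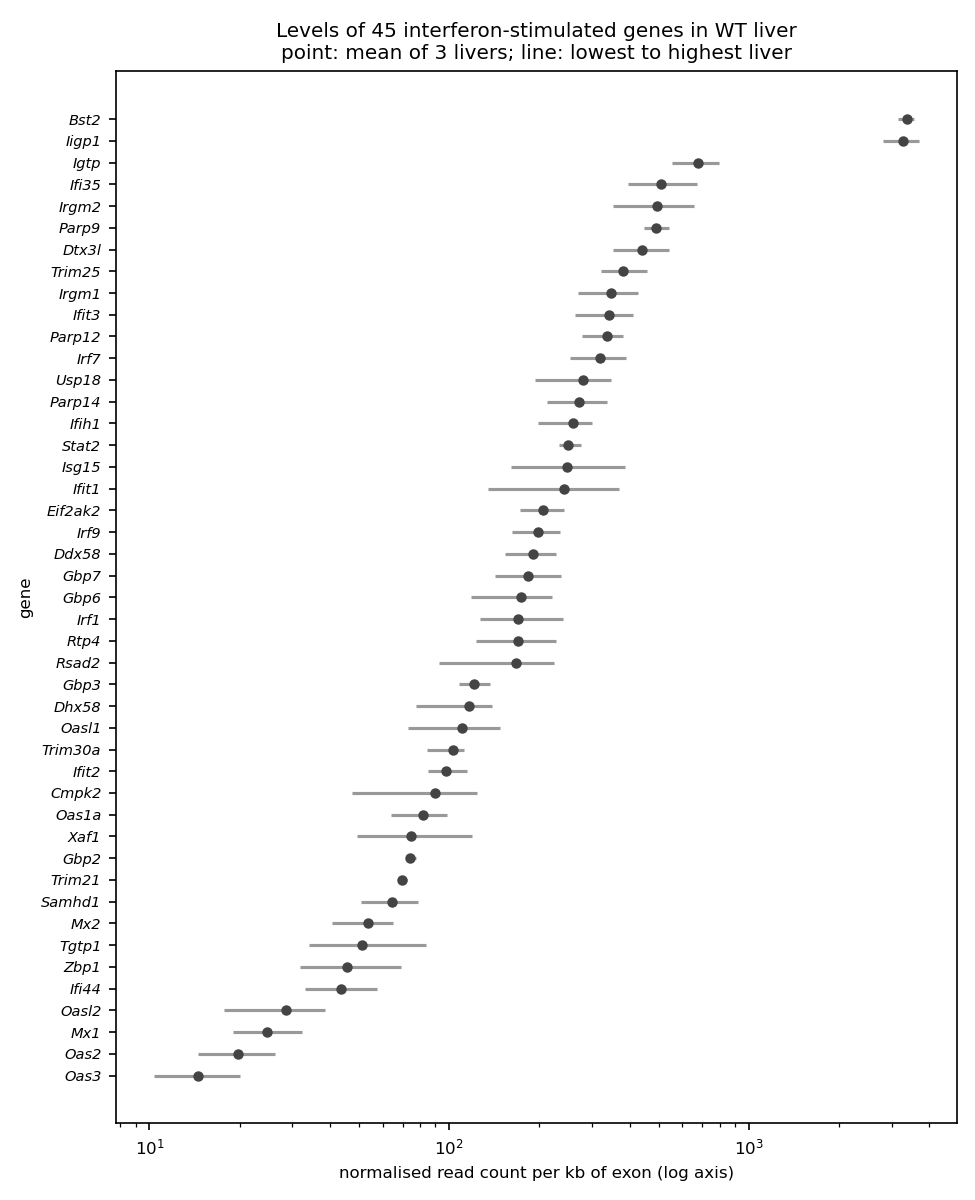
Normalised read count per kb of exon (log axis) for each of the 45 genes in WT liver, with points at the mean of 3 livers and lines from the lowest to the highest liver. Bst2 and Iigp1 lie above 700 per kb, apart from the other 43 genes.

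Most of the 45 genes moved together from liver to liver, within groups as well as between them. Each gene's log2 value was centred on its mean over the 9 libraries, and the mean over the 45 genes gives a level per liver. This level was 0.23, -0.40 and -0.12 in WT replicates 1 to 3, -0.22 and -0.14 in HP1a_KO, -0.09 in HP1ab_KO, and 0.07, 0.24 and 0.43 in HP1ag_KO replicates 1 to 3. WT replicate 1 thus read higher than HP1ag_KO replicate 1, and the groups overlap. WT replicate 2 was the lowest of the 9 libraries for 23 of the 45 genes, HP1ag_KO replicate 3 was the highest for 18 and HP1ag_KO replicate 2 for 14, and WT replicate 1 was the highest for 9.

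Single pairs of livers show how much depends on which animals are set side by side. In 2 pairs an HP1ag_KO and a WT liver had neighbouring animal numbers. The HP1a_KO livers also neighbour each other in number, and whatever such animals share cannot be told apart from that genotype. HP1ag_KO replicate 3 read higher than its neighbour WT replicate 2 for 45 of 45 genes, with a median log2 difference of 0.77. HP1ag_KO replicate 1 read higher than its neighbour WT replicate 3 for 28 genes and lower for 17, with a median of 0.15. Against WT replicate 1, HP1ag_KO replicate 3 read higher for 31 genes, with a median of 0.19. HP1ag_KO replicate 1 read higher than WT replicate 1 for 14 genes only, with a median of -0.19.

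**Figure D2:**
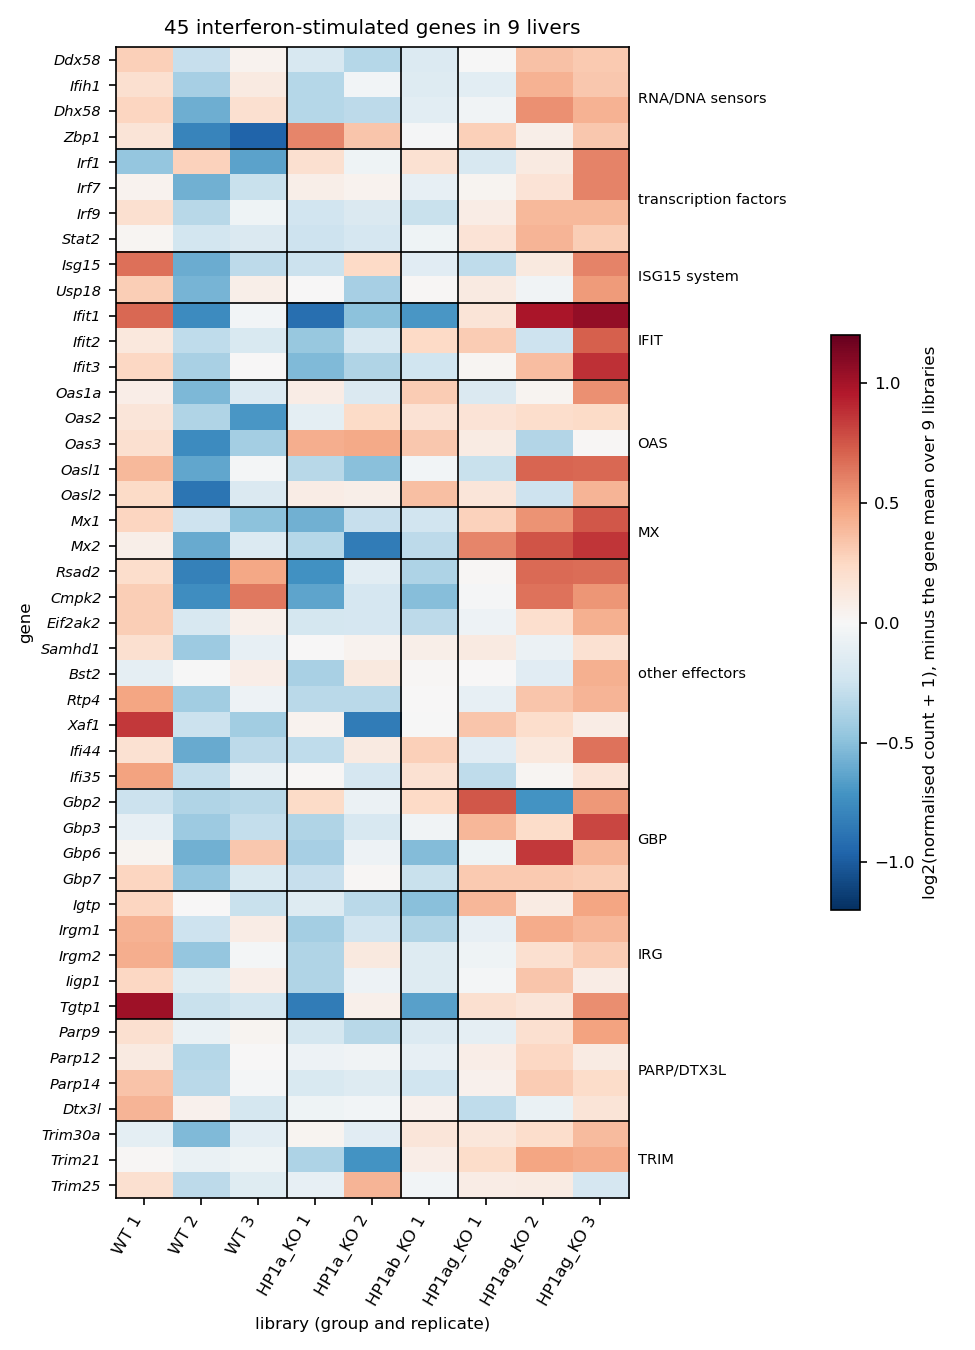
Log2 value of each of the 45 genes (rows, by role) in each of the 9 livers (columns), relative to the gene's mean over all livers. Columns tend to share a colour: WT replicate 2 is low in most rows and HP1ag_KO replicates 2 and 3 are high in many, while WT replicate 1 is high beside its group.

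As a description over 9 libraries, which share their group differences, the correlation of a gene with the mean of the other 44 had a median of 0.80. After the group means were removed it was 0.78, with Irf1 (-0.22) and Gbp2 (-0.06) below 0. Before that removal Irf9, the DNA-binding partner of STAT2, followed the others most closely (0.94). Irf1, a factor that interferon gamma and inflammatory signals induce, did so least (0.07). Outside the set, and among all tested genes, genes whose values were among the most like the level of the set over the 9 libraries were Drg2 and Adar (each with a correlation of 0.97), Rnf213 (0.93), Gbp9 (0.92), Brat1 (0.91), Idnk (0.90), Ntn3, Rps6kc1 and Pmel (0.89 each). Adar, an RNA-editing enzyme, Rnf213 and Gbp9 were on the lists of interferon pathway genes.

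In HP1ag_KO against WT, Mx2 and Gbp3 stood out most, followed by Stat2, Trim30a, Trim21 and Mx1. With limma, 0 of the 45 genes reached an adjusted p under 0.05, as did 0% of the 13845 genes tested, and the smallest adjusted p among the 45 was 0.394. With edgeR the count was also 0, against 0% of all genes. With DESeq2 2 of the 45 rose, Mx2 and Gbp3, against 0.391% of all genes called higher. At an unadjusted p under 0.05 in limma, 10 of 45 were higher and 0 lower, against 3.84% and 3.74% of all genes. In 8 of the 45 every HP1ag_KO liver read above every WT liver, and in 0 every one read below, against 6.46% and 7.05% of all genes. The median log2 difference over the 45 was 0.34, and over all tested genes it was -0.01, with 47.9% of them above 0. Because these genes vary together, their number is not a number of independent observations.

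Those counts depended on single livers. Without WT replicate 1, 21 genes were higher at an unadjusted p under 0.05, without WT replicate 2 or 3 there were 6, and 5 genes were so in the fit that dropped HP1ag_KO replicate 3. Every liver lay above in 22 genes once WT replicate 1 was left out, and in 19 once HP1ag_KO replicate 1 was. For counts without a liver, here and below, the share of all genes was not computed. With fewer livers full separation is easier for any gene, so a rise is not a result about these genes. The median was 0.11 without WT replicate 2.

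Mx1 and Mx2 belong to a family of dynamin-like GTPases whose members can block virus replication, and the annotation of the C57BL/6 reference lists Mx2 as a polymorphic pseudogene. Whether either gene gives a working protein in these mice was not tested. Mx2 (chromosome 16, 97535308 to 97560900 on GRCm38) read 235, 147 and 199 in WT, 176 and 124 in HP1a_KO, 179 in HP1ab_KO and 334, 378 and 404 in HP1ag_KO. Each HP1ag_KO liver lay above each of the 6 other livers. The log2 difference from WT was 0.96 ± 0.21 (SE), with an adjusted p of 0.394 in limma and 0.011 in DESeq2. Mx1 (chromosome 16, 97447035 to 97462907) read 122, 85.7 and 72.1 in WT and 124, 149 and 172 in HP1ag_KO, which separates the groups by the narrow gap between 122 and 124. Its log2 difference was 0.69 ± 0.23 (SE, unadjusted p = 0.018 in limma), and in HP1a_KO it read 76.1 ± 11.6.

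The guanylate-binding proteins are interferon-induced GTPases that attack the vacuoles and membranes of intracellular pathogens. Gbp3 (chromosome 3, 142560026 to 142573209), whose promoter stretch above holds 2 overlapping ISRE cores, read 446, 351 and 391 in WT, 371 and 418 in HP1a_KO, 462 in HP1ab_KO and 627, 556 and 829.9 in HP1ag_KO. All 3 HP1ag_KO livers lay above the other 6. The log2 difference from WT was 0.75 ± 0.17 (SE), with an adjusted p of 0.411 in limma and 0.018 in DESeq2. Gbp7, next to Gbp3 on the chromosome, read 1323, 799 and 969 in WT and 1371, 1374 and 1351 in HP1ag_KO, again a separation over WT replicate 1 that is narrow. All 4 listed GBP genes had a higher mean in HP1ag_KO, with a median log2 difference of 0.49. Gbp2 did so with livers on both sides of WT, at 391, 141 and 334 against 195, 181 and 184.

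Among the transcription factors, Stat2 separated the groups and Irf7, Irf9 and Irf1 did not. Stat2 (chromosome 10, 128270559 to 128292849), the partner of IRF9, read 1635, 1382 and 1419.6 in WT, 1354 and 1394 in HP1a_KO, 1549 in HP1ab_KO and 1795, 2131 and 1977 in HP1ag_KO. Its log2 difference from WT was 0.41 ± 0.10 (SE), with an adjusted p of 0.459 in limma. Irf7, the amplifier of type I interferon production, read 1472, 955 and 1186 in WT and 1457, 1595 and 2149.9 in HP1ag_KO, and the lowest HP1ag_KO liver lay under the highest WT liver. Irf9 read 1260.3, 874 and 1058 in WT and 1173, 1441 and 1440.2 in HP1ag_KO, with a log2 difference of 0.35 ± 0.15 (SE, unadjusted p = 0.043 in limma). Irf1 ranged from 504 to 955 in WT and from 691 to 1190.4 in HP1ag_KO, and both of these groups hold high and low livers.

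The TRIM proteins are ubiquitin ligases: TRIM21 is a cytosolic antibody receptor, TRIM25 acts on RIG-I signalling, and TRIM30a dampens inflammatory signalling. Trim30a (chromosome 7, 104409025 to 104465193) read 461, 347 and 459.8 in WT, 514 and 455 in HP1a_KO, 553 in HP1ab_KO and 551, 579 and 652 in HP1ag_KO. The HP1ag_KO livers lay above WT, but the HP1ab_KO liver fell among them. The log2 difference of HP1ag_KO from WT was 0.50 ± 0.14 (SE, unadjusted p = 0.0074 in limma). Trim21 (chromosome 7, 102557921 to 102565486) had the tightest WT values among these genes, at 268, 250.5 and 256. It read 309, 368 and 361 in HP1ag_KO, a log2 difference of 0.42 ± 0.13 (SE, unadjusted p = 0.014 in limma). Trim25 read 2625, 1850.4 and 2072 in WT and 2439.7, 2448 and 2000.4 in HP1ag_KO, so that the groups overlap throughout.

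**Figure D3:**
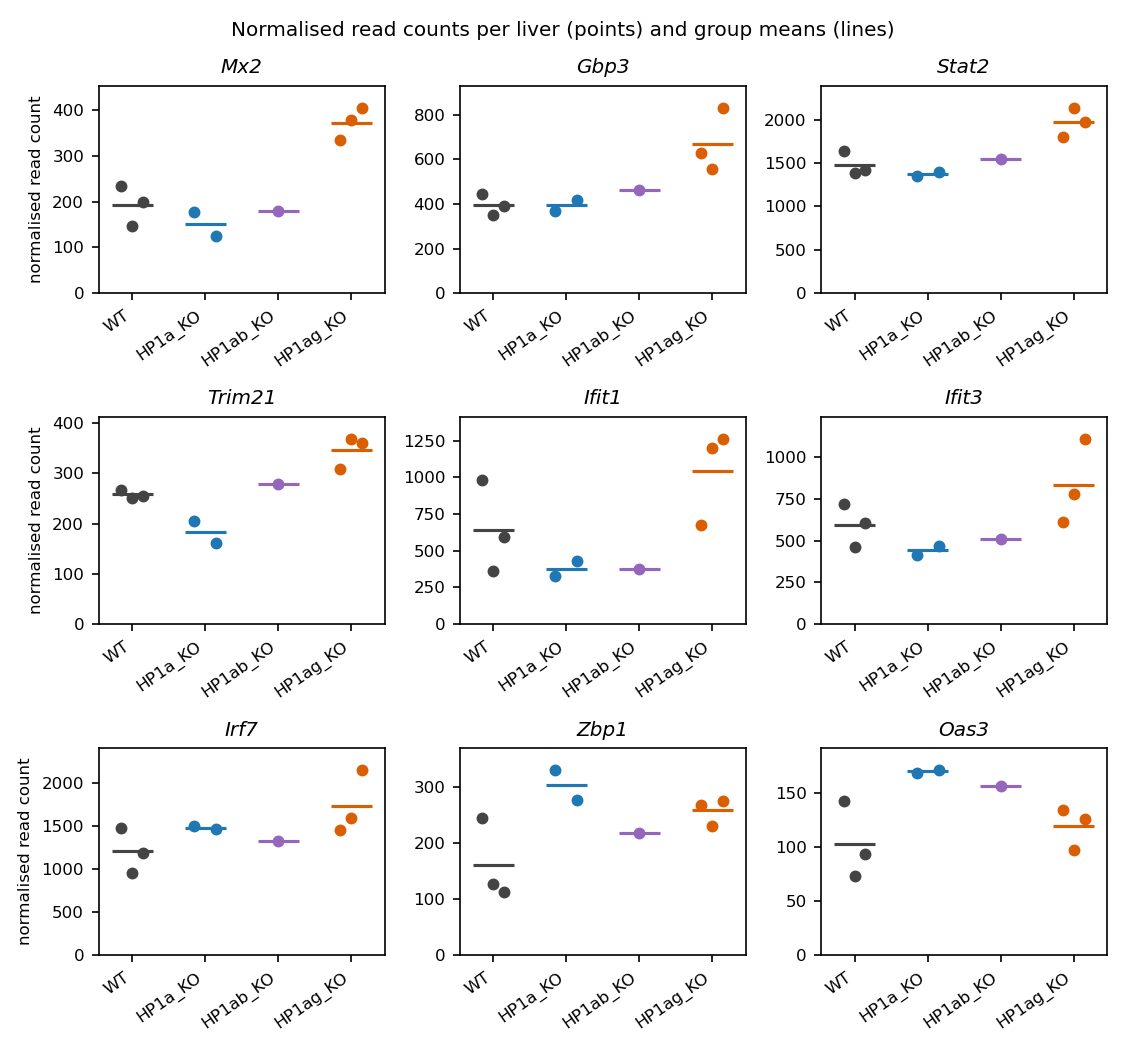
Normalised read count (linear axis from 0) of Mx2, Gbp3, Stat2, Trim21, Ifit1, Ifit3, Irf7, Zbp1 and Oas3 in each liver by group, with points for livers and lines for group means. Mx2 and Gbp3 in HP1ag_KO lie above all 6 other livers, while Ifit1 and Irf7 spread widely within WT and HP1ag_KO.

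The sensors detect viral nucleic acid in the cytosol: Ddx58 encodes RIG-I, Ifih1 MDA5, Dhx58 LGP2, and Zbp1 a sensor of Z-form nucleic acid that can trigger cell death. All 4 had a higher mean in HP1ag_KO than in WT, and none separated the groups. Zbp1 (chromosome 2, 173206612 to 173218923) read 245, 127 and 112 in WT, 330.3 and 278 in HP1a_KO, 218 in HP1ab_KO and 269, 231 and 275 in HP1ag_KO. WT replicate 1 alone reached the values of the other groups. Its log2 difference from WT was 0.76 ± 0.27 in HP1ag_KO (SE, unadjusted p = 0.024 in limma). Ddx58 read 1597, 1081 and 1353 in WT and 1306, 1673 and 1628 in HP1ag_KO, and Ifih1 read 2441, 1619.9 and 2299.8 in WT and 1952, 2843 and 2669 in HP1ag_KO. In both of these genes HP1ag_KO replicate 1 lay among the WT livers.

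The classical interferon markers Ifit1, Isg15 and Usp18 did not separate HP1ag_KO from WT. Ifit1, which binds viral RNA that lacks a host-type cap, read 979, 359 and 594 in WT, 325 and 433 in HP1a_KO, 375 in HP1ab_KO and 678, 1200.1 and 1260.4 in HP1ag_KO. Its log2 difference from WT was 0.76 ± 0.37 (SE, unadjusted p = 0.074 in limma), as wide as that of Zbp1 with a larger error. Isg15, a ubiquitin-like modifier, read 292, 122 and 148 in WT and 149, 199.6 and 279 in HP1ag_KO. Its log2 difference was 0.22 ± 0.36, and it turned to -0.035 without WT replicate 2 and to -0.010 when HP1ag_KO replicate 3 was dropped. Usp18, the protease that removes ISG15 and restrains the receptor, read 971, 538 and 832 in WT and 850.3, 767 and 1128 in HP1ag_KO, again with overlap.

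The remaining families are given by their counts. All 5 oligoadenylate synthetase genes had a higher mean in HP1ag_KO than in WT (median log2 difference 0.37), and in Oas2 the 3 HP1ag_KO livers, at 118, 122 and 124, lay just above the highest WT liver at 117. The 5 immunity-related GTPase genes, which act on pathogen vacuoles, were all higher in mean with a median of 0.16, and the 3 IFIT genes with a median of 0.47. Of the 9 other antiviral genes 8 were higher (median 0.19), the exception being Ifi35. Of Parp9, Parp12, Parp14 and Dtx3l, which encode ADP-ribosyltransferases and their partner ligase, 3 were higher (median 0.17), the exception being Dtx3l. Apart from Oas2, none of these genes had every HP1ag_KO liver above every WT liver, and none had an unadjusted p under 0.05.

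The 8 genes whose HP1ag_KO livers all lay above WT (Stat2, Oas2, Mx1, Mx2, Gbp3, Gbp7, Trim30a and Trim21) included 3 pairs on one chromosome. Gbp3 and Gbp7 lie 9876 bases apart on chromosome 3, Mx1 and Mx2 lie 72400 bases apart on chromosome 16, and Trim21 and Trim30a lie 1843538 bases apart on chromosome 7. The genes of a pair are not separate observations. Reads of near-identical relatives, such as the Gbp, Oas1, Ifit3 and Tgtp copies, may have been split between genes in the counting, and their single values are uncertain.

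HP1a_KO livers did not share the direction of HP1ag_KO. Of the 45 genes 15 had a higher mean than WT and 30 a lower one, with a median log2 difference of -0.14 against -0.00 for all tested genes, of which 49.7% were above 0. With limma and with edgeR 0 of 45 were called (0% of all genes), and with DESeq2 0 were called, against 0.712% of all genes. At an unadjusted p under 0.05 in limma, 2 of 45 were higher (Zbp1 and Oas3) and 1 lower (Trim21), against 5.48% and 4.66% of all genes. In 3 genes both HP1a_KO livers lay above WT (Zbp1, Oas3 and Gbp2) and in 3 below (Eif2ak2, Parp9 and Trim21), against 14.7% and 15.1%, so the shares of separated genes were lower than the background. Leaving out WT replicate 1 gave a median of -0.03, leaving out WT replicate 2 gave -0.30 and leaving out HP1a_KO replicate 1 gave -0.08. With a term for the neighbouring animal numbers it was -0.32. That term covers no HP1a_KO liver and takes the reference level from WT replicate 1 and HP1ag_KO replicate 2, which have no neighbour. The value therefore holds a shift of the WT reference and does not correct HP1a_KO for shared neighbours. The number with a higher mean fell to 9 without WT replicate 2. For the counts that follow no share of all genes was computed, and separation is easier for any gene with fewer livers. The count above WT was 10 without WT replicate 1 and 6 with HP1a_KO replicate 1 or 2 left out, and the count higher at p under 0.05 ran from 0 without HP1a_KO replicate 1 to 4 without WT replicate 1, and was 1 without HP1a_KO replicate 2 or WT replicate 3.

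Trim21 read 205 and 161 in HP1a_KO, under the narrow WT range of 250.5 to 268, a log2 difference of -0.50 ± 0.15 (SE, unadjusted p = 0.010 in limma). Oas3 (chromosome 5, 120753098 to 120777661) read 142, 73.3 and 93.6 in WT, 169 and 171 in HP1a_KO, 157 in HP1ab_KO and 134, 97.6 and 126 in HP1ag_KO. Its log2 difference from WT was 0.77 ± 0.28 in HP1a_KO (SE, unadjusted p = 0.024 in limma), and the HP1a_KO and HP1ab_KO livers stood above all others. Zbp1 was 0.99 ± 0.31 above WT in HP1a_KO (SE, unadjusted p = 0.012 in limma). Parp9 read 2635, 2182 and 2352 in WT and 1993 and 1829 in HP1a_KO, a log2 difference of -0.32 ± 0.17 (SE). The smallest limma adjusted p of the 45 in this comparison was 0.432. By family, the 3 IFIT, 5 immunity-related GTPase and 2 MX genes all had a lower mean in HP1a_KO (medians -0.40, -0.27 and -0.31), and 4 of 5 OAS genes a higher one (median 0.35).

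The single HP1ab_KO liver lay among the WT livers for most of the set. Its values have no replicate check, and limma takes the spread of the other groups for it. Of the 45 genes 21 read above the WT mean and 24 below, with a median log2 difference of -0.03, against -0.00 for all tested genes and 49.4% above 0. With limma and edgeR 0 of 45 were called (0% of all genes), as with DESeq2 (0.0796% of all genes), and 0 had an unadjusted p under 0.05 in limma, against 3.7% of all genes. The liver read above all 3 WT livers in 10 genes and below them in 6, against 22.6% and 24.8% of all genes. The former held 4 of the 5 OAS genes and the latter 4 of the 5 immunity-related GTPase genes. Igtp, one of the GTPases, read 956 against 1613, 1354 and 1124 in WT, a log2 difference of -0.50 ± 0.22 (SE, unadjusted p = 0.052 in limma). Trim30a and Oas3, with the values above, differed from WT by 0.40 ± 0.20 and 0.65 ± 0.35. Without WT replicate 1 the median was 0.14, the count above WT was 21 and 4 genes were higher at p under 0.05, and without WT replicate 2 the median was -0.20. With a term for neighbouring animal numbers, which shifts the WT reference as for HP1a_KO, the median was -0.28. For the counts without a WT liver no share of all genes was computed.

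The comparison of HP1ag_KO with HP1a_KO sets livers that all lack HP1α side by side, and it held the widest differences. With limma and edgeR 0 of 45 genes were called (0% of all genes), and the smallest limma adjusted p was 0.127. With DESeq2 6 of 45 rose, against 1.73% of all genes: Mx2, Trim21, Stat2, Ifit1, Gbp3 and Ifit3. At an unadjusted p under 0.05 in limma, 13 of 45 were higher and 0 lower, against 7.8% and 8.38% of all genes. In 26 of 45 all 3 HP1ag_KO livers lay above both HP1a_KO livers, and in 2 (Zbp1 and Oas3) below, against 17.5% and 19.2%. The median log2 difference was 0.40, against -0.02 for all tested genes, with 48% of them above 0. The 13 became 5 without HP1a_KO replicate 1, 8 without HP1a_KO replicate 2 and 21 without HP1ag_KO replicate 1. This comparison and the one with WT share the HP1ag_KO livers, so they are not independent of each other.

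Trim21 and Mx2 led this comparison. Trim21, at 205 and 161 in HP1a_KO and 309 to 368 in HP1ag_KO, differed by 0.92 ± 0.15 on the log2 scale (SE), with an adjusted p of 0.127 in limma and 0.00041 in DESeq2. Mx2, at 176 and 124 against 334 to 404, differed by 1.32 ± 0.23 (SE), with an adjusted p of 0.127 in limma and 0.00028 in DESeq2. In both genes a wide gap lay between the highest HP1a_KO and the lowest HP1ag_KO liver.

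Stat2, at 1354 and 1394 against 1795 to 2131, differed by 0.51 ± 0.11 (SE), with an adjusted p of 0.141 in limma and 0.011 in DESeq2. Ifit1 differed by 1.43 ± 0.42 (SE), the widest of the 45 here, with an adjusted p of 0.015 in DESeq2. Ifit3 (chromosome 19, 34583531 to 34588731), its neighbour and a partner of IFIT1, read 416 and 468 in HP1a_KO and 613, 782 and 1108 in HP1ag_KO, and differed by 0.87 ± 0.26 (SE), with an adjusted p of 0.038 in DESeq2. In Ifit1 and Ifit3 the HP1a_KO livers lay at the low end of WT, where Ifit3 read 718, 460.0 and 604, and HP1ag_KO reached above it. The HP1a_KO values of Gbp3, 394 ± 33.6, lay within the WT range, and its adjusted p was 0.021 in DESeq2.

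**Figure D4:**
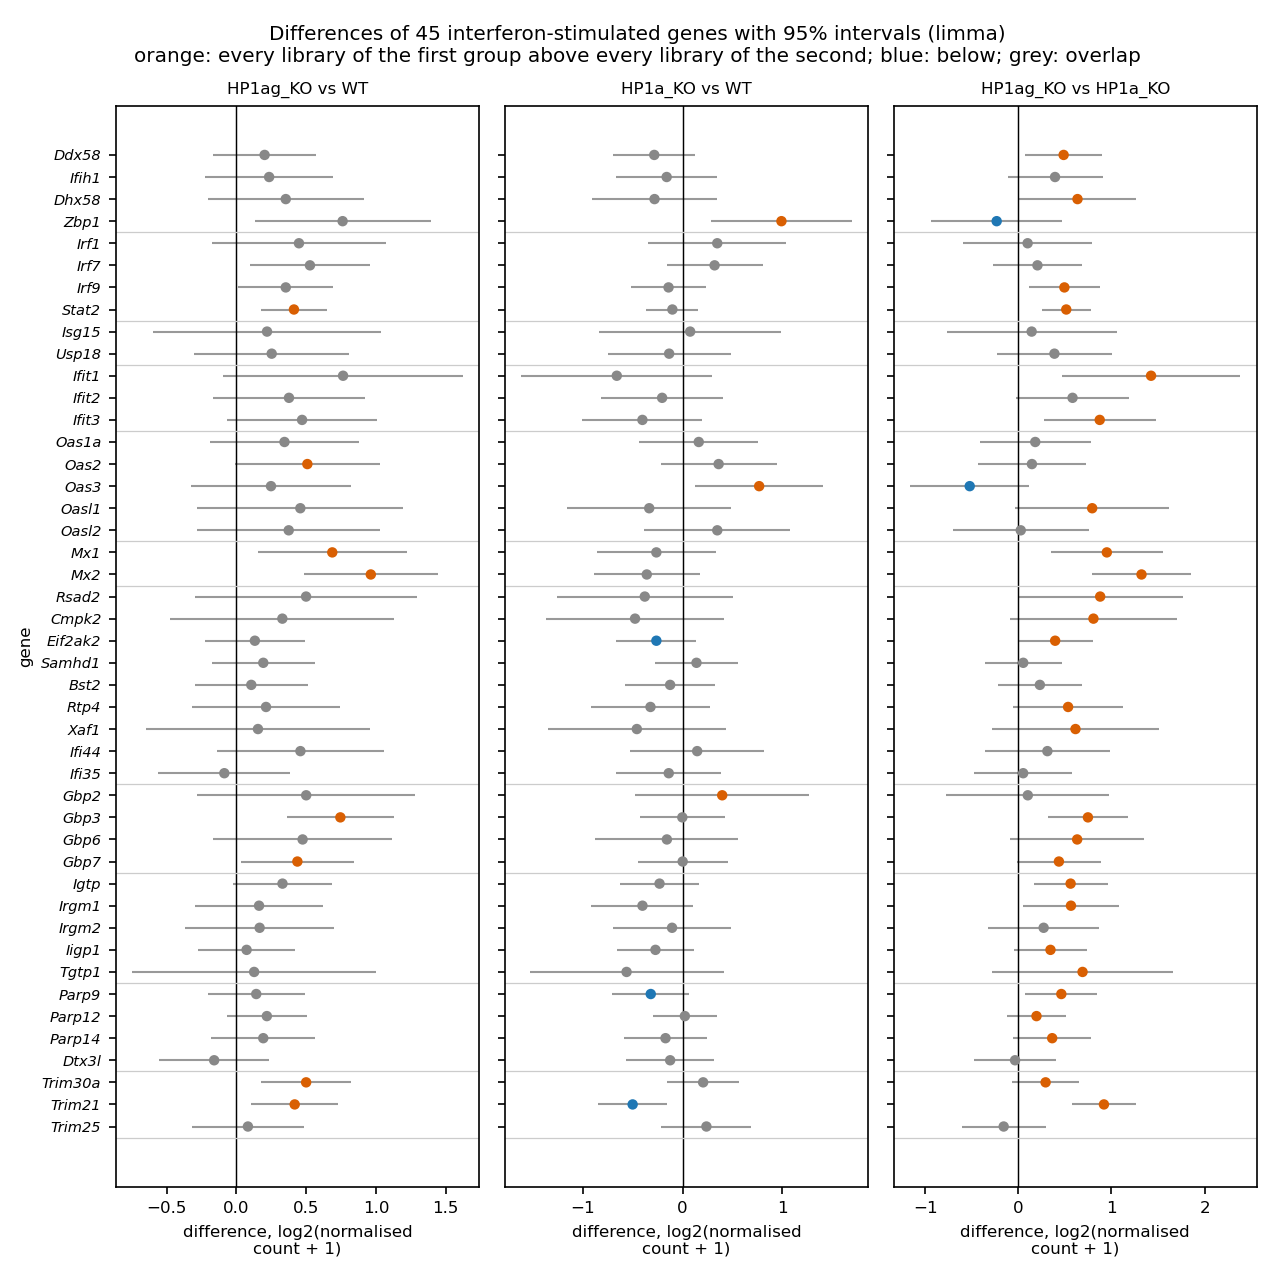
Log2 differences of the 45 genes with 95% intervals from limma in HP1ag_KO against WT, HP1a_KO against WT and HP1ag_KO against HP1a_KO, with orange for genes whose livers in the first group all lie above those of the second, blue for all below and grey for overlap. Most points lie right of 0 in HP1ag_KO against WT and against HP1a_KO, and on both sides of 0 in HP1a_KO against WT.

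All 6 HP1α-null livers together against WT gave 33 genes with a higher and 12 with a lower mean, a median log2 difference of 0.10 against -0.01 for all tested genes, of which 48.3% were above 0. With limma and edgeR 0 of 45 were called (0% of all genes), as with DESeq2 (0.333% of all genes). At an unadjusted p under 0.05 in limma 5 of 45 were higher (Zbp1, Irf7, Oas2, Gbp3 and Trim30a) and 0 lower, against 3.5% and 2.81% of all genes. In 0 of 45 did all 6 null livers lie above all 3 WT livers, against 1.4% of all genes. Leaving out WT replicate 2 gave a median of -0.038 and leaving out WT replicate 1 gave 0.26. It was -0.00061 when HP1ag_KO replicate 3 was dropped and 0.02 when HP1ag_KO replicate 2 was dropped. With the term for neighbouring animal numbers, which shifts the WT reference as above, it was 0.0075. A higher mean was seen in 21 genes without WT replicate 2, in 22 without HP1ag_KO replicate 3 and in 44 without WT replicate 1. At p under 0.05, 13 genes were higher without WT replicate 1 and 2 without WT replicate 2 or 3, and dropping HP1ag_KO replicate 1 or 3 gave 3.

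The rest of the pathway was read from lists of its other genes. Of 23 listed interferon genes 4 were in the table, with 12 reads in all over the 9 libraries and at most 2 reads in any one library. Ifng, the gene of interferon gamma, had 8 of these reads, so ligand transcripts were at the limit of detection in every group.

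Negative regulators were divided, with 3 of 6 tested genes higher in mean and a median of 0.07. Sensing adaptors had 8 of 13 higher and a median of 0.01, and 0 genes of either list had an unadjusted p under 0.05. Ikbke, a kinase that activates interferon regulatory factors, read 693, 486 and 369 in WT and 903, 708 and 626 in HP1ag_KO, and its livers overlapped. Other interferon-inducible genes, 54 tested, leaned the way the set of 45 did, with 48 higher against 47.9% of all genes, a median of 0.20 and 0 called in limma. At an unadjusted p under 0.05 in limma 8 were higher and 0 lower, against 3.84% and 3.74% of all genes. In 10 of the 54 every HP1ag_KO liver lay above WT, against 6.46% of all genes. The mean centred level of the 54 was 0.17, -0.26 and -0.15 in WT replicates 1 to 3. In HP1ag_KO it was 0.02, 0.11 and 0.31, so the livers of these groups overlapped. Over the 9 livers this level had a correlation of 0.96 with that of the 45 genes, so the list is not separate support. Gbp8 read 118, 109.5 and 77.7 in WT and 165, 145 and 170.3 in HP1ag_KO, a difference of 0.67 ± 0.18 (SE, unadjusted p = 0.0068 in limma). Gbp9 and Oas1g differed by 0.46 ± 0.14 and 0.72 ± 0.24.

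**Figure D5:**
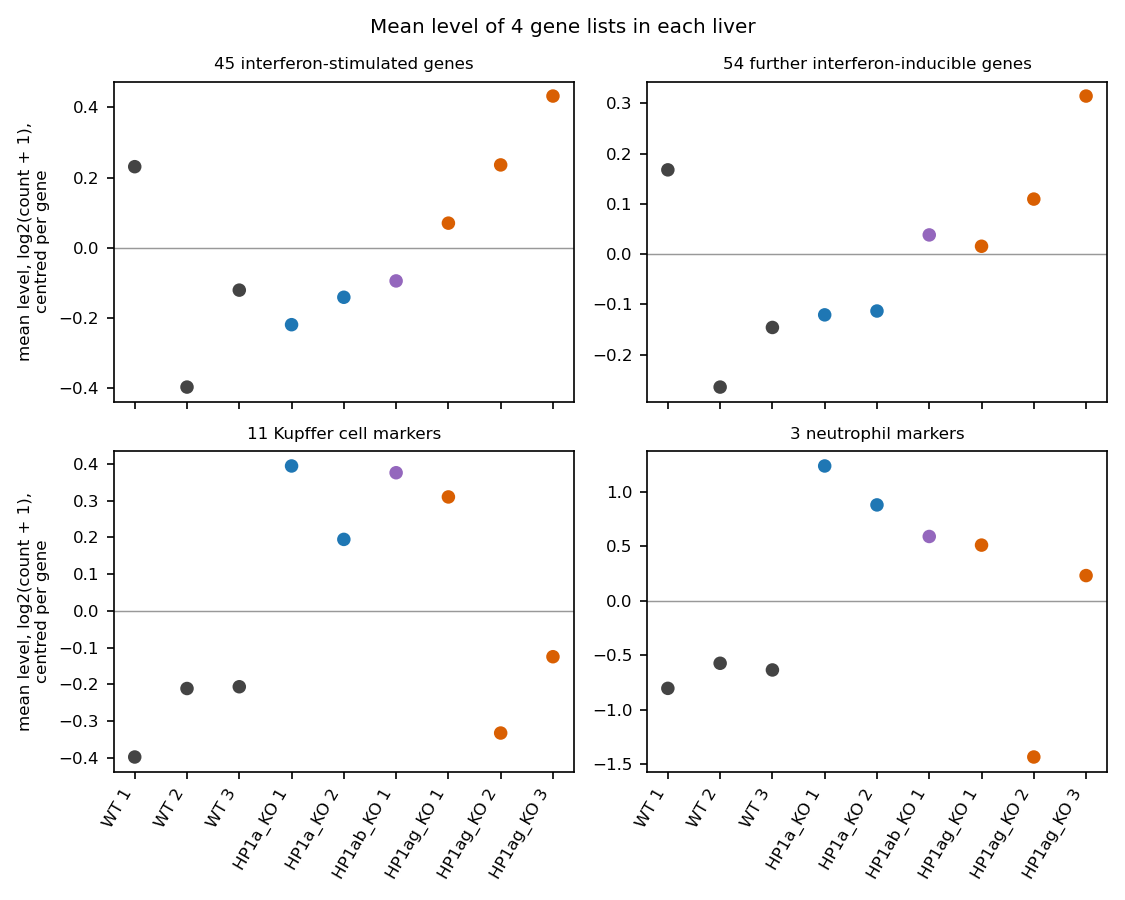
Mean centred log2 level of gene lists (points) in each of the 9 livers. The 45 genes and the other interferon-inducible genes follow each other from liver to liver, with WT replicate 2 lowest, while the Kupffer cell markers are below 0 in the 3 WT livers and HP1ag_KO replicates 2 and 3 and above 0 in the other 4 livers.

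Markers of immune cells that can express interferon-stimulated genes also differed between livers. In whole tissue, fewer cells of a type and less RNA per cell cannot be told apart. Of 11 tested Kupffer cell markers (among them Clec4f, Timd4 and C1qa) 11 had a higher mean in HP1ag_KO than in WT, against 47.9% of all genes. The median was 0.21, with 0 at an unadjusted p under 0.05 in limma. Their mean centred log2 level was -0.40, -0.21 and -0.21 in WT replicates 1 to 3. In HP1ag_KO it was 0.31, -0.33 and -0.13, so the livers of these groups overlapped. In HP1a_KO 11 of 11 were higher, against 49.7% of all genes, with a median of 0.56. At an unadjusted p under 0.05 in limma 8 of 11 were higher, against 5.48% of all genes. Their summed counts were 13944 to 16571 in WT, 20685 to 24215 in HP1a_KO, 23721 in HP1ab_KO and 15216 to 22146 in HP1ag_KO, and HP1a_KO and HP1ag_KO overlap. All 9 listed neutrophil markers, of which 3 were tested, had summed counts of 91.6 to 99.3 in WT, 272 to 314 in HP1a_KO, 199 in HP1ab_KO and 60.6 to 204 in HP1ag_KO. Among them Ly6g was at 0 reads in all libraries but those of HP1a_KO. All 10 listed T and NK cell markers, of which 4 were tested, summed to 108 to 138 in WT, 145 to 149 in HP1a_KO, 128 in HP1ab_KO and 84.1 to 173 in HP1ag_KO. B cell markers summed to 32.9 to 115 in WT, 71.6 to 90.3 in HP1a_KO, 77.5 in HP1ab_KO and 40.4 to 133 in HP1ag_KO. The plasmacytoid dendritic cell markers Siglech and Ccr9 summed to 29.5 to 39.1 in WT, 12.8 to 26.7 in HP1a_KO, 42.4 in HP1ab_KO and 33.6 to 41.0 in HP1ag_KO. These sums rest on few reads. The 12.8 is from HP1a_KO replicate 1, the shallowest library, where 1 read is worth 1.83. The part of these cells in the differences above was not tested.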

How the data were processed

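Total RNA of 9 frozen livers was depleted of ribosomal RNA and made into strand-specific libraries, per the labels. Tools listed in the submitters' processing notes, with no role given, are TopHat2 2.0.10 and Bowtie2 2.1.0, HTSeq 0.5.4p3, CASAVA 1.8.2 and DESeq2 1.0.19, and the build is mm10. Per gene and library, the authors deposited a normalised signal, which is the read count over that library's size factor (0.545 to 1.25). Dividing by what 1 read is worth gave whole numbers, within 0.1 read, for 100.0% of values in each library, so whole reads were recovered. For the counting, the strand setting, annotation release and filters are not stated in those sources.

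Groups were taken from the genotype labels. limma 3.58.1 (R 4.3.3) with a mean trend was fitted to log2(value + 1) of 13845 genes (mean of 10 or more), with all 4 groups in 1 fit (5 residual and 3.13 prior degrees of freedom) and Benjamini-Hochberg adjustment over all genes within each comparison. The added 1 makes differences of low genes read too small. edgeR 4.0.16 (quasi-likelihood) and DESeq2 1.42.0 (Wald) were run on the recovered reads. The fit was tested on simulated data, where DESeq2 recovered more of the planted differences than limma or edgeR and also made more false calls. Coordinates and exon lengths came from GENCODE for GRCm38, which held 22257 of the 22701 genes, and promoters from RefSeq.

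The members and lists were chosen with earlier results of these data known. Genes given with values were, by p among the 45, the first 8 in HP1ag_KO against WT, 4 in HP1a_KO against WT and 3 in each of HP1ab_KO against WT and HP1ag_KO against HP1a_KO. To these were added Irf7, Irf9, Stat2, Isg15, Usp18, Ifit1, Ifih1, Ddx58, the smallest p of each pathway list and the genes most like the set. An item that the naming rule covers, and a list that holds it, are left out of the text. Other values (Irf1, Gbp2, Gbp7, Trim25, Oas2, Ifit3, Bst2, Iigp1 and the separated genes) were chosen after they were seen. Alternatives covered the pseudocount, the filter, the scaling, the trend, the count tests, fits of only the groups compared, a term for neighbouring animal numbers and leaving out each liver. The counts of genes whose livers all lay above, and of genes at an unadjusted p under 0.05, were added to the comparisons without each liver after the data were seen.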

Additional observations from a re-analysis of the deposited data

How the results depend on the processing

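No paired analysis was possible because the labels give animal numbers and no replicate numbers shared between groups. A term for neighbouring animal numbers (HP1ag_KO replicate 1 with WT replicate 3, and HP1ag_KO replicate 3 with WT replicate 2) was run instead, and the labels do not say that such animals share a litter. The HP1a_KO livers, which neighbour each other, were not covered by this term. With the term the median over the 45 genes was 0.34 with 43 higher in HP1ag_KO against WT. Each pair holds an HP1ag_KO and a WT liver, so the term is balanced and this difference could not change. The median was -0.32 in HP1a_KO against WT, -0.28 in HP1ab_KO against WT, 0.54 in HP1ag_KO against HP1a_KO and 0.0075 for all null livers. There the term takes the reference level from WT replicate 1 and HP1ag_KO replicate 2, which are in no pair. These medians therefore hold a shift of reference and do not correct HP1a_KO or HP1ab_KO for shared neighbours. DESeq2 called 99 genes in HP1ag_KO against WT, 87 in HP1a_KO against WT, 11 in HP1ab_KO against WT, 457 in HP1ag_KO against HP1a_KO and 46 in all HP1α-null livers against WT, where limma called 0 in each, and of the 45 genes it called 2 in the first and 6 in the fourth of these. Single settings of limma called 1 gene in HP1a_KO against WT (pseudocount 5), 54 in HP1ab_KO against WT (no filter), 1 there with the neighbour term, and 7 in HP1ag_KO against HP1a_KO (no trend). With the neighbour term Zbp1 in HP1ag_KO against HP1a_KO turned to 0.032.

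When each liver was left out in turn, limma called 0 to 2 genes in HP1ag_KO against WT, 0 to 5 in HP1a_KO against WT, 0 to 2 in HP1ab_KO against WT, 0 to 5 in HP1ag_KO against HP1a_KO and 0 to 1 for all null livers. The median over the 45 ran from 0.11 to 0.49, from -0.30 to -0.03, from -0.20 to 0.14, from 0.35 to 0.52 and from -0.038 to 0.26 in these comparisons. The number higher in mean ran from 35 to 45, 9 to 21, 16 to 29, 34 to 41 and 21 to 44. Isg15 in HP1ag_KO against WT ran from -0.035 (without WT replicate 2) to 0.59 (without WT replicate 1), and was -0.010 without HP1ag_KO replicate 3. The direction and side of the threshold of the named genes were kept in 234 of 238 values in HP1ag_KO against WT, 112 of 112 in HP1a_KO against WT, 42 of 42 in HP1ab_KO against WT and 121 of 128 in HP1ag_KO against HP1a_KO. No named gene was under the threshold in the main fit, so a kept side means only that the gene stayed uncalled. In HP1ag_KO against WT the neighbour term could not change a direction. The sizes of the differences could still shift. Ifit1 in HP1ag_KO against WT ran from 0.40 to 1.13 when each liver was left out. The cause of these shifts was not tested.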
